A study of Homo sapiens with 12 samples.

Results

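Footprints of translating ribosomes were followed on 10 genes of serine, asparagine and one-carbon metabolism, ASNS, PSAT1, PHGDH, PSPH, SHMT1, SHMT2, MTHFD2, MTHFD1L, ALDH1L2 and PCK2. They were taken by symbol from a deposited table of 19219 gene rows, and all 10 were found. The cells were HEK293, an established human embryonic kidney line, either wild type or a line whose label names a CNBP knockout. CNBP is a zinc-finger protein that binds G-rich stretches of mRNA. Some samples had cycloheximide alone, a drug that stops ribosomes along the mRNA. The others had harringtonine as well, which holds ribosomes at the start of translation and lets those further along finish. There were 5 wild-type and 3 knockout samples with cycloheximide, 3 wild-type samples with harringtonine and 1 knockout sample with harringtonine. Both knockout columns carry 1 knockout name in their headers, so a trait of that line cannot be told apart from an effect of the knockout. Whether replicates were grown as separate cultures is not stated, so p-values measure only the spread between these samples, which may be technical.

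Serine is made from a glycolytic intermediate by PHGDH, PSAT1 and PSPH acting in that order. SHMT1 in the cytosol and SHMT2 in mitochondria then split serine into glycine and a one-carbon unit on folate, which MTHFD2, MTHFD1L and ALDH1L2 carry through the mitochondrial steps towards formate or carbon dioxide. ASNS makes asparagine from aspartate with glutamine as nitrogen donor, and PCK2 is the mitochondrial enzyme that makes phosphoenolpyruvate from oxaloacetate. Many of these genes are known targets of ATF4, the transcription factor of the integrated stress response, whose complexes with C/EBP proteins bind short composite elements in promoters.

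One spelling of that element, TGATGNAA, was looked for on both strands of the RefSeq promoters of GRCh38.p14, which run from 250 bases before to 50 bases after a start. Promoters were held for 7 of the 10 genes, 11 promoters in all, and 2 genes had a match. The matches are printed 5′ to 3′ on the gene's strand with the matched letters in capitals, because they are the only promoter feature searched. ASNS has its match 68 bases before one of its 2 starts, at chr7:97872458-97872486 on the minus strand, and MTHFD1L 129 bases before one of its 4 starts, at chr6:150866347-150866375 on the plus strand.
ASNS: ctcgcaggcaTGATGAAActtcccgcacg
MTHFD1L: ccgccggctcTGATGCAAtcgcgccgggc
Of all 27305 genes with a promoter in that table, 4.46% held a match. The ASNS letters are those of the nutrient-sensing response element known from this gene. A match is a run of letters only, and ribosome footprints do not measure binding.

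The table gives 1 mean per group. Each mean is an average of RPKM values, reads per kilobase scaled to the library's total reads, and its digits gave back the read total of every library and, for many genes, the reads of each library behind the mean. Totals were 13247304 to 36588045 reads in wild type with cycloheximide, 9214139 to 25306330 for knockout cells with cycloheximide, 8490083 to 21313170 in wild type with harringtonine and 18932345 for knockout cells with harringtonine. Libraries are called a to e from the largest total down within a group, and these letters are not the replicate numbers of the labels. Levels per library are reads per kilobase for every 1000000 reads on 1718 genes read back in all 12 libraries, here called scaled levels. Those genes held 10221 to 45724 reads per library. Libraries of a group differed widely: Spearman's rho between 2 libraries over those genes ran from 0.42 to 0.82 in wild type with cycloheximide, from 0.50 to 0.53 in the knockout and from 0.16 to 0.63 in wild type with harringtonine. Knockout library c alone carried 63.4% of the weight of its group's mean over those genes, with 3163 of every 1000000 reads on them against 1300 and 527 in libraries a and b. Of markers of the line, VIM, KRT8 and KRT18 had footprints, and NEFM was listed at 0 in all groups. EYA1 and PAX2 reached at most 0.032 and 0.036 RPKM, and NEFL and LHX1 had no row. ALB, PTPRC, MYOD1 and CD3E of other tissues were also listed at 0. PECAM1, of endothelium, was at 0 in wild type and had no knockout value. COL1A1 and DCN, which mark fibroblasts, reached at most 0.061 and 0.028 RPKM, and COL1A1 lay above EYA1 and PAX2 in each group.

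CNBP itself kept footprints in the cells labelled as its knockout. Its deposited mean with cycloheximide was 3.73 RPKM for wild type and 2.20 for the knockout, and with harringtonine 3.27 and 2.36. The 3 knockout libraries with cycloheximide held 30, 11 and 101 CNBP reads, and the knockout library with harringtonine held 86. Relative to the median gene the log2 ratio with cycloheximide was -0.32. It was -0.08, -0.23 and -1.49 without knockout library a, b and c in turn, and with harringtonine it was -0.19. Footprints over a whole gene do not test for the small insertions or deletions that Cas9 makes, so they check the labels only weakly, and "knockout" in what follows means cells or libraries labelled so.

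Among the serine synthesis enzymes, PSAT1 and PHGDH were densely covered and PSPH less so. PHGDH (ENSG00000092621, hg19 chromosome 1, 120202421 to 120286838), the first and committed step, had deposited means with cycloheximide of 1.30 RPKM for wild type and 0.93 for the knockout, and 1.79 and 1.13 with harringtonine. PSAT1 (ENSG00000135069, chromosome 9, 80912059 to 80945009), the aminotransferase of the second step, had 1.67 and 0.59 with cycloheximide and 1.21 and 1.14 with harringtonine. It was the highest of the 10 genes in that wild-type mean, above 96.1% of the genes with all 4 means above 0. PSPH (ENSG00000146733, chromosome 7, 56078744 to 56119297), the phosphatase of the last step, had 0.67 and 0.58 with cycloheximide and 0.61 and 0.63 with harringtonine. PSAT1 over PSPH was 2.5 with cycloheximide for wild type and 1.00 for the knockout, and 1.98 and 1.81 with harringtonine. The PHGDH over PSPH ratio was 1.96 and 1.59 with cycloheximide and 2.93 and 1.79 with harringtonine.

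PSPH could be followed in all 12 libraries. Wild type with cycloheximide held 28, 15, 14, 53 and 57 reads in libraries a to e, the knockout 20, 11 and 32, wild type with harringtonine 21, 31 and 13, and the knockout library with harringtonine 33. Scaled levels were 303 ± 145 (SD, n = 5) in wild type with cycloheximide, 336 ± 100 (n = 3) in the knockout, 281 ± 57.6 (n = 3) in wild type with harringtonine and 341 in the single knockout library. Wild-type libraries d and e, at 461 and 451, were the highest and library c, at 138, the lowest, so the wild-type range held all 3 knockout libraries. The exact two-sided permutation test of knockout against wild type with cycloheximide gave p = 0.821 (adjusted p = 1 over 4 such tests), where 0.0357 is the smallest p this design allows.

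SHMT2 was covered more densely than its cytosolic counterpart SHMT1 in each of the 4 group means. SHMT2 (ENSG00000182199, chromosome 12, 57623110 to 57628718) had deposited means of 1.63 and 0.94 RPKM in wild type and knockout with cycloheximide and 1.97 and 1.42 with harringtonine. SHMT1 (ENSG00000176974, chromosome 17, 18231187 to 18266856) had 0.29 and 0.14, then 0.36 and 0.27. The ratio of SHMT2 over SHMT1 with cycloheximide was 5.52 for wild type and 6.90 for the knockout, and with harringtonine 5.51 and 5.25. In single libraries it was 5.43, 5.09 and 7.67 in the knockout with cycloheximide and 4.36, 3.72 and 6.91 in wild type with harringtonine. The ratios of wild type with cycloheximide and of the knockout library with harringtonine lay within the range of these single libraries. The other group ratios combine these libraries and so must lie within their range. SHMT2 rested on 71, 14 and 93 reads in the 3 knockout libraries with cycloheximide, on 99, 63 and 157 in wild type with harringtonine and on 129 in the knockout with harringtonine. SHMT1 was thinner. By its listed length it had an estimated 17.0 reads over the 3 knockout libraries with cycloheximide and 35.8 over the wild-type libraries with harringtonine. In the knockout library with harringtonine it had 14.1.

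The mitochondrial folate enzymes spanned the widest range of levels. MTHFD2 (ENSG00000065911, chromosome 2, 74425689 to 74444692), a dehydrogenase and cyclohydrolase, had deposited means of 0.99 and 0.54 RPKM in wild type and knockout with cycloheximide and 0.70 and 1.01 with harringtonine. MTHFD1L (ENSG00000120254, chromosome 6, 151186685 to 151423023), which releases formate, had 1.22 and 0.61, then 1.06 and 0.60. ALDH1L2 (ENSG00000136010, chromosome 12, 105413568 to 105478355), which oxidises the unit to carbon dioxide, had only 0.062 and 0.042, then 0.029 and 0.0063. ALDH1L2 was the lowest of the 10 in each group mean and the only one under the level filter of the ratios below.
Reads per library show how thin its coverage was, with 5, 6 and 5 reads in the knockout with cycloheximide, 5, 6 and 0 in wild type with harringtonine and 1 in the knockout with harringtonine. No direction is read from these counts. MTHFD1L held 124, 9 and 34 reads in knockout libraries a, b and c with cycloheximide, 154, 63 and 28 in the wild-type libraries with harringtonine and 56 in the knockout library. Its scaled level was 762 in knockout library a against 178 and 236 in b and c, and 1269 in wild-type harringtonine library a against 361 and 258. In both groups 1 library stood well above the other two.

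ASNS (ENSG00000070669, chromosome 7, 97481430 to 97501854) had deposited means of 1.58 and 0.64 RPKM in wild type and knockout with cycloheximide and 1.48 and 1.23 with harringtonine. The knockout libraries with cycloheximide held 36, 9 and 61.9 ASNS reads, with fractions that some genes carry, and the knockout library with harringtonine held 104. The scaled levels were 246, 198 and 476, and 667 with harringtonine. PCK2 (ENSG00000100889, chromosome 14, 24563262 to 24579807) had 0.39 and 0.22 RPKM with cycloheximide, 2.32 in wild type with harringtonine and 0.076 in the knockout with harringtonine. It was therefore the highest of the 10 genes in wild type with harringtonine and the second lowest in the knockout with harringtonine.

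**Figure D1:**
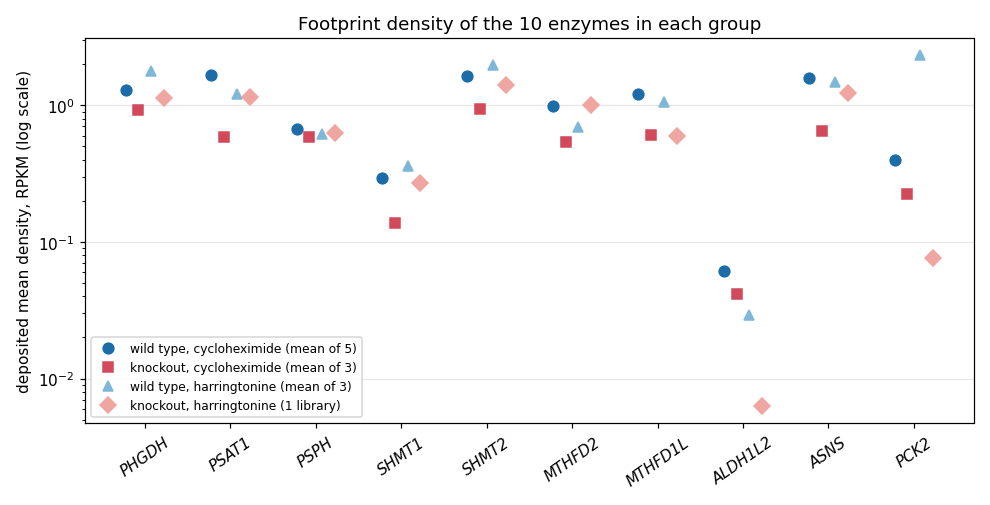
Deposited mean footprint density (RPKM, log scale) of the 10 enzymes, with 1 point for each group, the average of 5, 3 or 3 libraries or a single library. The genes lie between 0.0063 and 2.32 RPKM, ALDH1L2 is the lowest in each group and PCK2 spans the widest range of the genes that passed the level filter.

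The PCK2 mean with harringtonine came almost wholly from 1 wild-type library. Its reads were 41, 30, 84, 20 and 10 in the wild-type libraries with cycloheximide, 38, 21 and 2 in the knockout, 17, 5 and 237 in wild type with harringtonine and 6 in the knockout with harringtonine. Harringtonine library c made up 95.8% of its group's sum. Scaled levels there were 165, 33.8 and 2579 in libraries a, b and c, and the single knockout library, at 40.9, lay inside that range. With cycloheximide the scaled level was 249 ± 195 (SD, n = 5) in wild type and 261 ± 237 (n = 3) in the knockout. The highest knockout library, b, stood at 490 and the lowest, c, at 16.4, against 547 and 52.2 for the highest and lowest wild-type libraries, so the groups overlapped. Exact two-sided permutation tests gave p = 1 for knockout against wild type with cycloheximide and p = 0.643 for harringtonine against cycloheximide in wild type, both adjusted to 1 over 4 tests.

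**Figure D2:**
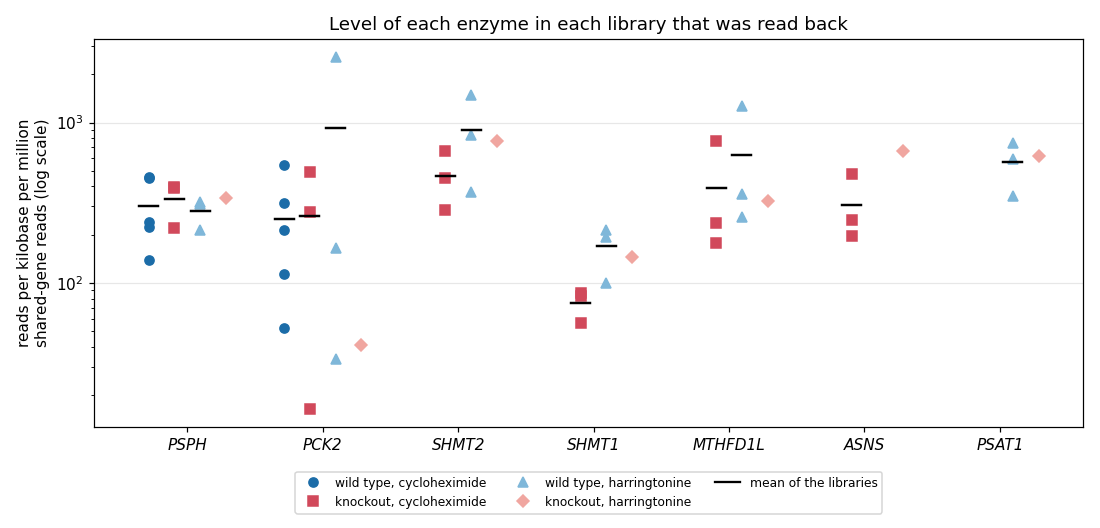
Scaled level of 7 enzymes in each library that was read back (reads per kilobase for every 1000000 reads on shared genes, log scale), with 1 point per library and a bar at the mean of a group's libraries. PCK2 in wild type with harringtonine runs from 33.8 to 2579, while PSPH stays between 138 and 461 in all 12 libraries.

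In the order of levels in wild type with cycloheximide, PSAT1 was followed by SHMT2, ASNS, PHGDH, MTHFD1L, MTHFD2, PSPH, PCK2, SHMT1 and ALDH1L2. A spread between libraries was at hand in that group for PSPH and PCK2 alone. Their RPKM values ran from 0.20 to 1.56 and from 0.18 to 1.00, so the ranges overlapped. Within single libraries PSPH was the higher in a, d and e, and PCK2 in b and c. A difference between these neighbours was not tested. For the other 8 genes the wild-type mean with cycloheximide has no spread here.

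To compare the labelled knockout with wild type on elongating ribosomes, log2 ratios of knockout over wild type with cycloheximide were taken between deposited means and set relative to the median of 6045 genes compared, which itself was -0.44. Of the 9 enzymes compared, 8 were below the median gene and PSPH alone above it. Their median was -0.43, beside 0 for all genes compared, which the centring sets. The other lists of related genes, given below, also had medians under 0, from -0.37 to -0.18, so this side is not particular to the enzymes. Genes of like density were not set beside them. PSAT1 had -1.07, or 2.09-fold lower, and was the 1 enzyme past 2-fold, against 3.24% of all genes compared on the lower side of 2-fold and 4.43% on the higher side. ASNS followed at -0.85, SHMT1 at -0.66, MTHFD1L at -0.55, MTHFD2 at -0.43, PCK2 at -0.38 and SHMT2 at -0.34. PHGDH, at -0.04, and PSPH, at 0.25, lay nearest the median gene or above it. Differences between the 3 steps of serine synthesis were not tested. These are ratios of means with no test. Footprint density also depends on mRNA level, which was not used here, so changes in mRNA and in translation cannot be told apart. Of the 10 enzymes, PSPH and PCK2 were read back in all 12 libraries and the others in fewer.

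Leaving out 1 knockout library at a time left some of these values in place and turned others. ASNS stayed between -1.35 and -0.73, SHMT1 between -0.72 and -0.55 and SHMT2 between -0.60 and -0.27. Each stayed below the median gene whichever knockout library was left out. For these genes and MTHFD1L no wild-type library could be left out, because those with cycloheximide were not read back. MTHFD1L was 0.38 without library c and -1.29 without library a. PCK2 was 1.19 without knockout library c, -1.11 without library a and 0.32 without wild-type library c. Without library c, ASNS and PCK2 were past 2-fold, lower and higher in turn, and without library a MTHFD1L and PCK2 were past 2-fold on the lower side. PSAT1 could not be checked in this way, because its knockout libraries were not read back. The limma fit over 2863 genes read back in all 12 libraries gave PSPH a log2 difference of 0.16 ± 0.41 (SE, adjusted p = 0.887) and PCK2 -0.35 ± 1.07 (adjusted p = 0.904). That fit called 0 genes at an adjusted p under 0.05, 0% of those tested, and 285 had an unadjusted p under 0.05. Without knockout library c it called 6 genes, with PSPH and PCK2 not among them.

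**Figure D3:**
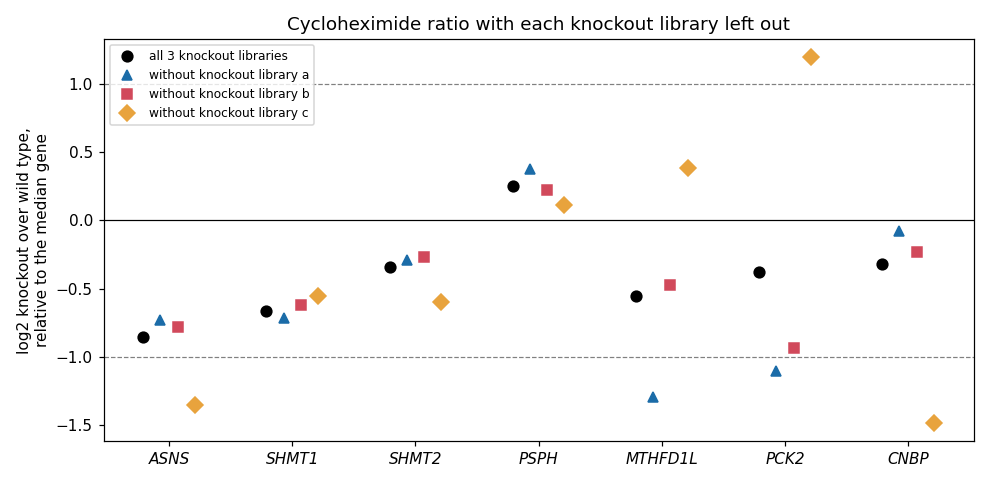
Log2 ratio of knockout over wild type with cycloheximide relative to the median gene for 6 enzymes and CNBP, from all libraries and with each of the 3 knockout libraries left out. Dashed lines mark 2-fold. ASNS, SHMT1 and SHMT2 stay below 0 with each knockout library left out, while MTHFD1L and PCK2 lie above 0 without library c. All wild-type libraries are kept.

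With harringtonine, knockout over wild type compares 1 library with 3. Of the 9 enzymes compared, 5 were below the median gene and 4 above it, with a median of -0.11. PCK2 had -4.65, 25.1-fold lower, and only 0.0165% of the genes compared had a lower ratio. Without wild-type library c its ratio was -0.94, and the limma fit over 7 libraries gave -2.40 ± 1.72 (SE, adjusted p = 1.00). PCK2 was the 1 enzyme past 2-fold, against 6.58% of genes on the lower side and 6.72% on the higher side. MTHFD2, at 0.81, was the highest of the others, followed by PSPH at 0.33, PSAT1 at 0.20 and ASNS at 0.03. SHMT1 had -0.11, SHMT2 -0.19, PHGDH -0.39 and MTHFD1L -0.54.

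Where libraries could be read back, the knockout library lay mostly within the wild-type range with harringtonine. Scaled levels of PSAT1 were 596, 350 and 750 in wild type and 619 in the knockout. Those of SHMT2 were 840, 372 and 1489 against 767, and those of SHMT1 193, 99.98 and 215 against 146. PSPH alone of 7 enzymes lay above all 3 wild-type libraries, at 341 against at most 318, and 0 lay below, where 22.1% and 7.35% of the 2733 genes read back did so. SHMT2 turned from -0.19 to 0.47 without wild-type library c, and MTHFD1L moved from -0.54 to 0.02 without library a and to -1.07, past 2-fold, without library c. SHMT1 was 0.07 and PSPH -0.02 without library c, and PSAT1 was -0.13 without library b, each on the other side of the median gene. In the limma fit SHMT2 had -0.16 ± 0.96, MTHFD1L -0.72 ± 1.07 and PSPH 0.15 ± 0.70 (SE, adjusted p = 1.00 each). It called 0 of 3943 genes, 0%, and 22 had an unadjusted p under 0.05. The lone knockout library was assumed to vary like the others.

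**Figure D4:**
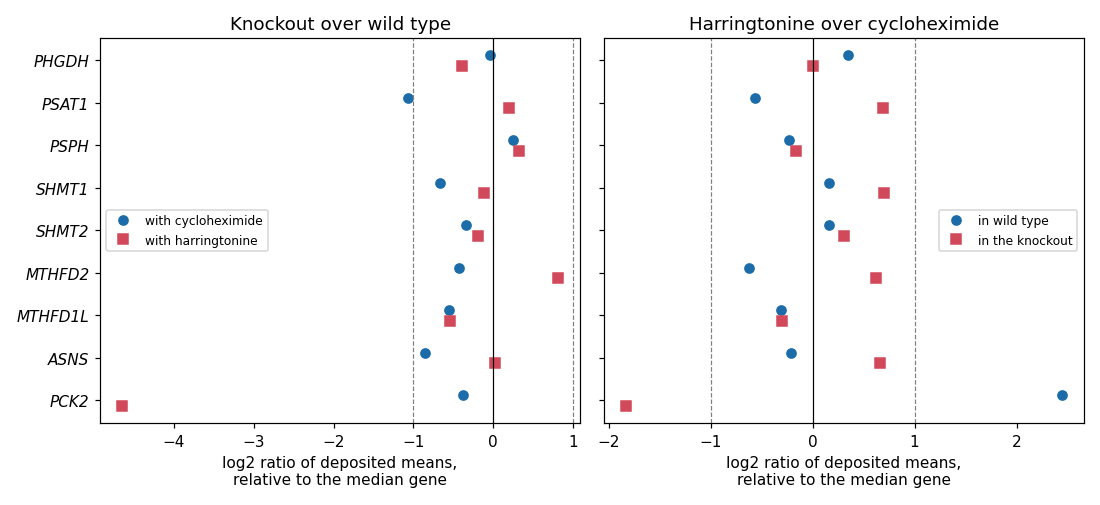
Log2 ratios of deposited means relative to the median gene for the 9 enzymes compared, knockout over wild type on the left and harringtonine over cycloheximide on the right. Dashed lines mark 2-fold. PSAT1 lies past 2-fold in the left panel with cycloheximide, and PCK2, at -4.65, 2.44 and -1.83, is past 2-fold in 3 of its 4 ratios.

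Harringtonine over cycloheximide measures how the drug that halts new initiation went with the footprints left on a gene. In wild type, 5 of the 9 enzymes were below the median gene and 4 above it, with a median of -0.21. PCK2 had 2.44, the 1 enzyme past 2-fold, against 3.41% of genes on the higher side and 3.31% on the lower side. Without harringtonine library c its ratio was -1.30. The limma fit gave 0.57 ± 1.07 (SE, adjusted p = 0.999) and called 0 of 2863 genes, 0%, with 88 at an unadjusted p under 0.05. PHGDH had 0.35 and SHMT1 and SHMT2 0.16 each, while MTHFD2 had -0.62, PSAT1 -0.57, MTHFD1L -0.31, PSPH -0.23 and ASNS -0.21. Without library c, SHMT2 was -0.52, SHMT1 -0.05, MTHFD1L 0.20 and PSPH 0.10, each on the other side of the median gene from its value with all libraries. MTHFD1L was -0.90 without library a. PSAT1 stayed between -0.82 and -0.24 with each harringtonine library left out.

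In the knockout, 6 of the 9 enzymes were above the median gene, with a median of 0.31. SHMT1 had 0.70, PSAT1 0.69, ASNS 0.66, MTHFD2 0.62 and SHMT2 0.31, PHGDH had 0.00, and PSPH, MTHFD1L and PCK2 had -0.16, -0.30 and -1.83. PCK2 was the 1 enzyme past 2-fold, against 6.82% of genes on the lower side and 5.51% on the higher side. It rested on 6 reads with harringtonine, and its value ran from -3.41 to -1.12 as each knockout library with cycloheximide was left out. MTHFD1L was 0.43 without library a and -1.24, past 2-fold, without library c, and ASNS was 1.16, past 2-fold, without library c. SHMT1, SHMT2 and PSPH kept their side of the median gene without each library in turn. Scaled levels of ASNS were 246, 198 and 476 with cycloheximide and 667 with harringtonine. Those of SHMT1 were 82.7, 56.1 and 86.6 against 146, and those of SHMT2 449, 285 and 664 against 767. In these 3 of the 7 enzymes read back, the harringtonine library lay above all 3 cycloheximide libraries, as it did for 27% of the 2733 genes, and for ALDH1L2, with 1 read, it lay below all 3, as for 14.5%. In the limma fit SHMT2 had 0.72 ± 0.96 and MTHFD1L -0.05 ± 1.07 (SE, adjusted p = 1.00 each). It called 0 of 3943 genes, 0%, and 26 had an unadjusted p under 0.05.

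The difference between the knockout ratios with and without harringtonine was positive for 7 of the 9 enzymes. PSAT1 had 1.26 and MTHFD2 1.23, which made 2 enzymes at least 2-fold on the higher side, where 9.25% of genes were. ASNS followed at 0.87, SHMT1 at 0.54, SHMT2 at 0.15, PSPH at 0.07 and MTHFD1L at 0.00. PHGDH had -0.35, and PCK2 had -4.28, 1 enzyme on the lower side, where 10.9% of genes were. In the limma fit the difference was -2.11 ± 1.99 for PCK2 and -0.01 ± 0.77 for PSPH (SE, adjusted p = 1.00 each), and 0 of 2863 genes were called, 0%, with 53 at an unadjusted p under 0.05. No library values in all groups were at hand for PSAT1 or MTHFD2, so their differences carry no error. ATF4, itself read from an mRNA with upstream reading frames, had log2 ratios of knockout over wild type of -0.47 with cycloheximide and 0.57 with harringtonine, a difference of 1.03. Its scaled levels with harringtonine were 194, 214 and 272 in wild type and 341 in the knockout.

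Other genes of the same pathways lay on both sides of the median gene. Of 31 other serine, glycine and folate genes, 17 were compared, of which 10 were below the median gene in the knockout with cycloheximide, 2 of them at least 2-fold, beside the 3.24% of all genes compared, with a median of -0.18. These were GGH at -1.37 and GLDC, a glycine cleavage enzyme, at -1.10, which like all genes past 2-fold outside the naming rule were named after their values were seen. Of the list, DLD, a subunit shared with the glycine cleavage system, had -0.79, AHCY, which clears S-adenosylhomocysteine, -0.54, and MTHFD1, the cytosolic folate enzyme, -0.50. All 16 genes of a list for purine and thymidylate synthesis were compared, and 12 were below the median gene with a median of -0.32. The list also holds CAD and CTPS1, which belong to pyrimidine synthesis more broadly. ATIC, which uses formyl-folate in the last steps of purine synthesis, had -1.07 and was the 1 gene of that list at least 2-fold lower, beside 3.24% of all genes compared. CAD, IMPDH2 and CTPS1, which act in nucleotide synthesis, had -0.67, -0.48 and -0.45.

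Of 18 genes of asparagine, aspartate, glutamine and proline metabolism, 13 were compared and 8 lay below the median gene, 2 of them at least 2-fold, ASNSD1 at -1.88 and GOT1, beside 3.24% of all genes compared, with a median of -0.31. GOT1, the cytosolic aspartate aminotransferase, had -1.14, GLUD1, glutamate dehydrogenase, -0.87, ALDH18A1, the first enzyme of proline synthesis, -0.79 and GOT2, the mitochondrial aminotransferase, -0.61. Of 28 other ATF4 and stress response genes, 14 were compared, 9 below the median gene and 2 at least 2-fold higher, beside 4.43% of all genes compared, with a median of -0.37. The 2 were PPP1R15A, a phosphatase subunit that reverses the stress response's phosphorylation, at 1.21 and ATF5, a transcription factor, at 1.14. The amino acid transporter SLC38A2 had -0.73, the arginine and lysine transporter SLC7A1 -0.55, and CEBPB, a partner of ATF4, -0.42. With harringtonine the medians of the 4 lists were 0.26, -0.23, -0.15 and 0.15 in the same order, against -0.11 for the 9 enzymes. The cycloheximide and harringtonine ratios share no samples, while ratios that use the same group do.

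The 2 enzymes with the most estimated reads in wild type with cycloheximide, SHMT2 and MTHFD2, were set against 321 genes with at least 100 such reads in each of the 4 groups. SHMT2 and MTHFD2 themselves fell under that limit in the knockout with harringtonine, with 91.7 and 85.0 estimated reads. Estimates use the listed length and can run low, as SHMT2 held 129 reads in that library when read back. The choice of these enzymes and of the genes set beside them rests on the estimates. The likeness was the root mean square distance between log2 means, each gene centred on its own average over the 4 group means. HNRNPR was nearest to SHMT2 at 0.025, followed by PABPC1 at 0.033 and PEBP1 at 0.034. HNRNPR had 0.87 and 0.52 RPKM with cycloheximide and 1.05 and 0.75 with harringtonine, wild type first. NDUFS5 was nearest to MTHFD2 at 0.072, followed by RPL34 at 0.11 and COX7C at 0.14. NDUFS5 had 10.5, 6.15, 7.53 and 12.1 RPKM in the same order, highest in the knockout with harringtonine. MTHFD2 was highest there too, but barely, at 1.01 against 0.99 in wild type with cycloheximide. RPL34 and COX7C were highest in wild type with cycloheximide, at 3.17 and 4.33 RPKM. In the knockout with harringtonine they had 2.78 and 3.53. With 4 points per gene, these are descriptions only.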

How the data were processed

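Ribosome profiling libraries of HEK293 cells were processed with TopHat and hg19 among the tools and builds named in the submitters' processing notes. The counting tool and its annotation were not given in the sources used here, nor was its use of strand. The authors deposited 1 table with a mean per group. Its values are in RPKM, as their digits show, and the knockout columns are the same deposited RPKM, entered as another kind of value because text cells stand among them. The deposited log ratios, entered as a score, were used only to check the table, with a tolerance of 1e-06. The TE columns, also entered as a score, were not used. Rows without a knockout value (918), on alternate sequences (290) or with a log ratio off its means (11) were set aside. This left 18050 usable genes, of which 12091 had all 4 means above 0, and the 6045 above the median level were compared. Ratios are log2 of deposited means with a pseudocount of 0, minus the median over those genes, and a gene counts as higher or lower at 2-fold.

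Library totals came from low products of mean and length that recur as the value of 1 read. The divisor length was recovered per gene, and differed from the listed length in most genes (median ratio 1.29). Whole reads per library were those whose values, at 12 digits each, average exactly to the deposited mean. Of 12091 genes, 6062 were recovered in both groups of 3 libraries, and 4245 of 5862 searched, up to 400 estimated reads, in all 12. With every total raised by 1%, 0 and 7 genes were. Genes with many reads are therefore under-represented. For members, reads in up to 12 parts were allowed, since some genes carry fractions, and 5 of 10 needed none. A member's solution was kept where at most 0.01 combinations were expected by chance, and 0.05 in wild type with cycloheximide, where PSPH stood at 0.040. For ALDH1L2 and others, wild-type libraries with cycloheximide were not settled. For the named-gene rule, reads were estimated from the listed length; a missing factor for the number of libraries was then corrected, which changed the genes named.

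The limma fits (limma 3.58.1, R 4.3.3) used log2 of reads plus 2 over library size, with sizes from the median ratio between libraries, over genes with a mean of at least 5 reads, with trended variances and Benjamini-Hochberg adjustment over all genes tested. The fits were first run with sizes from summed reads and called 0 genes in all 5 comparisons, with 21, 26, 289, 95 and 66 at an unadjusted p under 0.05. Simulated data then showed more false calls than the threshold allows, so the median ratio was taken instead. It again called 0, and false calls in simulated data stayed above the nominal share in 1 of the contrasts. The reading back was tested on simulated data too. With a library left out, the centre was the deposited one plus the shift of the median over recovered genes, a rule set after a first version did not return the deposited ratio. Reads here carry no molecular identifiers, so they may repeat 1 molecule. The text names all 10 members, ATF4 and CNBP, up to 4 genes of each other list by the largest cycloheximide ratio among those with at least 100 estimated reads, and the 3 nearest genes to 2 members. Of the genes so chosen, 1 is not reported here. Members and lists were chosen with earlier results of these data known, and the reading back, limma fits and left-out libraries were chosen after seeing the data.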

Additional observations from a re-analysis of the deposited data

How the results depend on the processing

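Dropping the centring moves every ratio by the centre itself. For knockout over wild type with harringtonine the median of the enzymes turned from -0.11 to 0.04 above a density of 1. The number of enzymes past 2-fold moved with several settings. For knockout over wild type with cycloheximide it was 1, but 3 without centring, 0 with a pseudocount of 1, 0 above a density of 1, 0 with at least 100 estimated reads in both groups (3 enzymes left), and 3 at 1.5-fold. With harringtonine it was 2 with no level filter, 0 above a density of 1 and 2 at 1.5-fold. For harringtonine over cycloheximide it was 2, 0 and 2 under those settings in wild type and 2, 0 and 5 in the knockout, where a pseudocount of 1 gave 0. For the difference of ratios, 3 enzymes became 1 with a pseudocount of 1 and 1 above a density of 1. A density above 1 left 4 enzymes. The filter on 100 estimated reads left none in the 3 comparisons with the knockout harringtonine library, which have no value there. These estimates from the listed length can run low, as SHMT2 held 129 reads and ASNS 104 in that library when read back. With all libraries kept, the enzymes took 1007, 549, 936 and 767 of every 1000000 of summed density in wild type and knockout with cycloheximide and wild type and knockout with harringtonine, and 1910, 1320, 1612 and 1638 without C16orf93 and the MTRNR2L genes. PCK2 for harringtonine over cycloheximide in wild type reversed from 2.44 to -1.30 without wild-type harringtonine library c, and was 3.22 without library b. SHMT2 over SHMT1 ran from 5.35 to 7.41 in the knockout and 3.99 to 6.18 in wild type with harringtonine as libraries were left out. Genes called by limma ran from 0 to 6 for the cycloheximide comparison, from 0 to 1 for knockout over wild type with harringtonine, and stayed at 0 in the other 3 as libraries were left out. Left-out libraries and limma fits were chosen after seeing the data. The causes were not tested. No paired analysis was possible because the deposited columns are group means and carry no replicate numbers. Depth limits ALDH1L2, with 0 to 6 reads in the libraries read back, and PCK2 in the knockout with harringtonine, with 6. It also limits SHMT1, with an estimated 17.0 reads over the knockout libraries with cycloheximide and 14.1 in the knockout with harringtonine.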
